A study of Sus scrofa with 4 samples.

Results

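Peroxisome proliferator-activated receptors alpha, delta and gamma (PPARA, PPARD and PPARG) and the coactivator MED1 were examined in pig (Sus scrofa) blastocysts by the gene symbols of the array's platform table. The 4 genes are among 10022 with a symbol on the array, and 6 probes carry their symbols. PPARD and PPARG have 2 probes each, and PPARA and MED1 have 1 each. The set was chosen by the receptors' shared pathway together with measured values of these arrays, the log2 ratios of high NEFA over control, in which MED1 had stood out. Those ratios are therefore given below as a description, without a test.

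The study compared blastocysts whose oocytes had met high levels of NEFA with blastocysts of control oocytes. NEFA, or non-esterified fatty acids, are the free fatty acids that fat stores release into blood. Each of 4 two-colour arrays held 1 pool of 10 high NEFA blastocysts and 1 pool of 10 control blastocysts, collected on days 7 and 8. On replicates 1 and 2 Cy3 marked the high NEFA pool, and on replicates 3 and 4 Cy5 did. The title names a co-culture with GCs, which is not spelled out, and whether the control pools shared it is not stated. No label gives the NEFA dose, the breed or the age of the oocyte donors, and a pool does not show how single embryos vary. The labels name total RNA, but their extraction and labelling protocols describe genomic DNA cut with methylation-sensitive enzymes. Which of these was hybridised is not settled, and if it was DNA the ratios below are not transcript levels. If it was RNA, a smaller share of cells of one type and less RNA per cell cannot be told apart in such pools.

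The PPARs are nuclear receptors that bind fatty acids and their derivatives and that pair with a retinoid X receptor on DNA. PPARA is best known for fatty acid oxidation in liver, PPARG for fat cell formation, and PPARD for its wide expression and its part in lipid use. MED1 is the subunit through which the Mediator complex, a bridge to RNA polymerase II, contacts ligand-bound nuclear receptors. In mice, loss of Pparg, Ppard or Med1 impairs the placenta, an organ that forms in large part from the trophectoderm, the outer layer of the blastocyst.

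The share of all probes above background was 49.97% to 58.6% in the high NEFA channels and 49.0% to 60.3% in the control channels, and the Cy3 channel had the larger share on every array. Of 10 trophectoderm markers, 7 were on the array by symbol, 6 of them above background in all 8 channels. CDX2, KRT8 and KRT18 had no symbol match. All 7 had a positive fitted log2 ratio of high NEFA over control, beside 47.2% of all genes, with a median of 0.28, and their summed level was 55559 to 80790 in high NEFA pools and 54059 to 72105 in control pools. The 4 inner cell mass markers measured of 6 had a median of 0.25 and sums of 1317 to 1830 in high NEFA pools and 1039 to 1499 in control pools. POU5F1 and NANOG, the other markers listed for it, had no symbol match. The 4 primitive endoderm markers measured of 6 had a median of -0.17, with sums of 8350 to 9965 in high NEFA and 7724 to 11397 in control pools. The 2 granulosa markers measured of 10 had a median of 0.24 and sums of 1689 to 3535 in high NEFA and 1496 to 2620 in control pools. The 6 oocyte markers measured of 10 had a median of -0.20 and sums of 1960 to 2115 in high NEFA and 2012 to 2525 in control pools, and BMP15 was above background in no channel. None of these markers passed the adjusted threshold. An unadjusted p under 0.05 was found for 4 trophectoderm, 2 inner cell mass and 1 granulosa marker with positive ratios, and for 1 primitive endoderm and 1 oocyte marker with negative ones. That is 9 of the 23 tested, beside 6.42% of all genes, and the part of cell composition in the ratios below was not tested.

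MED1 was lower in the high NEFA pool than in the control pool on every array. The fitted log2 ratios of the receptors lay between -0.10 and 0.09. Ratios are log2 of high NEFA over control after background correction and loess normalization, so that 0 means equal signal and a negative value means less signal in the high NEFA pool. A fitted ratio averages the 2 dye orientations, and its standard error (SE) and 95% interval come from a limma fit over all 24524 tested probes. A probe was tested when its signal exceeded that of the negative control spots in at least 4 of the 8 channels. The 4 probes tested here were 1 per gene. Those of PPARA and PPARG read near the limit set by the negative control spots, so their ratios near 0 do not show equal amounts. Over all tested probes, 0 (0%) passed an adjusted p of 0.05, while 6.41% had an unadjusted p under 0.05 and 0.359% had one together with a 1.5-fold difference.

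The MED1 probe (EMPV1_26708) was above background in all 8 channels. Its median pixel intensity was 908, 707, 494 and 594 in the high NEFA pools of replicates 1 to 4, against 753, 605, 2050 and 1381 in the control pools. These raw intensities of the pools overlap, and Cy3 was the brighter channel over all probes. After loess the log2 level was 9.47, 9.07, 9.17 and 9.39 in the high NEFA pools, against 9.78, 9.50, 10.70 and 10.10 in the control pools. Every high NEFA pool then lay below every control pool, although the highest high NEFA value (9.47) and the lowest control value (9.50) nearly met. With the channels also scaled between arrays (Aquantile), the high NEFA pools spanned 9.18 to 9.46 and the control pools 9.67 to 10.71. Among all tested probes, 0.400% were separated in this direction after loess and 0.575% after Aquantile scaling. Since MED1 was picked with these values known, nothing is read from its place among them. The mean level was 9.28 ± 0.19 in high NEFA pools and 10.02 ± 0.51 in control pools (SD, n = 4 each), with replicate 3 the highest of the control pools.

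**Figure D1:**
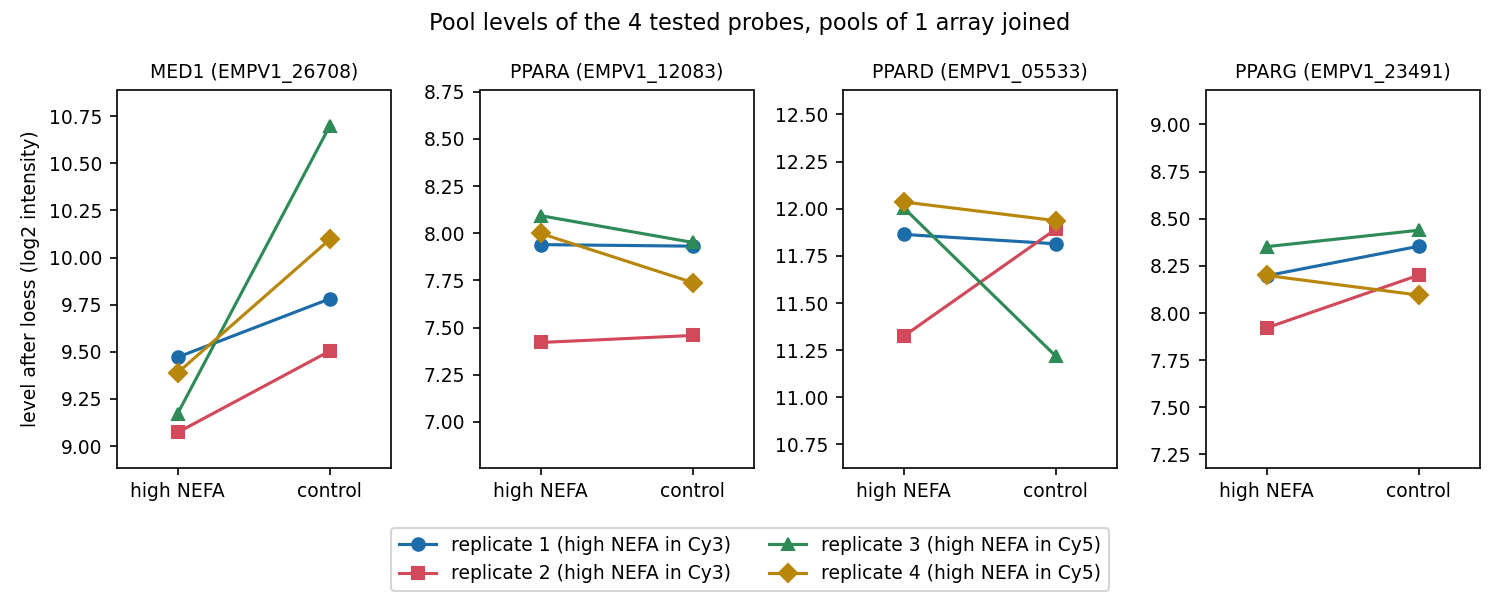
Log2 intensity after loess (vertical axis) of the 4 tested probes in the high NEFA pool (left of each panel) and the control pool (right). Each line joins the pools of 1 array, and the marker shows the replicate. For MED1 all 4 lines run up toward the control pool, while the PPARA, PPARD and PPARG levels of the pools overlap. Intensities of different probes are not comparable.

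The MED1 ratio was -0.31 and -0.43 on the arrays with the high NEFA pool in Cy3, and -1.53 and -0.71 on those with it in Cy5. In linear terms the high NEFA signal was 0.807, 0.741, 0.347 and 0.612 times the control signal on replicates 1 to 4. All 4 ratios are below 0, as for 4.06% of tested probes (3.76% were above 0 on all 4), but replicate 3 had a far larger difference than replicate 1. The mean was -0.37 with the high NEFA pool in Cy3 and -1.12 with it in Cy5. The fitted ratio was -0.74 ± 0.15 (SE), with a 95% interval of -1.09 to -0.40, which is 0.597 times the control signal (0.470 to 0.758). MED1 was picked with these ratios known. The interval does not allow for that choice and is not read as a test. The SD over the 4 ratios was 0.55. Of the 24524 tested probes, 9 (0.0367%) had a lower fitted ratio and 28 (0.114%) a ratio of at least this size in either direction. Nothing is read from this place either, as it follows from how MED1 was picked. In the authors' deposited table, turned by dye, the MED1 ratios were -0.31, -0.47, -1.52 and -0.66, close to those computed here.

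The PPARA probe (EMPV1_12083) was dim. Its intensity was 363, 255, 260 and 249 in the 4 high NEFA pools, against 217, 153, 368 and 347 in the control pools. The signal passed the background limit in 3 of the 4 high NEFA pools and in 2 of the 4 control pools, and on replicate 2 in neither. The log2 level spanned 7.42 to 8.09 in high NEFA pools and 7.46 to 7.95 in control pools, so the pools overlap. The ratios were 0.01, -0.04, 0.14 and 0.26 on replicates 1 to 4. The fitted ratio was 0.09 ± 0.12, and its interval of -0.18 to 0.37 reaches from 0.882 to 1.29 times the control signal. Of the tested probes, 73.3% had a lower ratio.

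PPARD had 1 bright and 1 dim probe. The bright probe (EMPV1_05533) had intensities of 4350, 3071, 3535 and 3682 in the 4 high NEFA pools, against 3164, 3254, 2883 and 4620 in the control pools, all above background. Its log2 level spanned 11.32 to 12.04 in high NEFA pools and 11.22 to 11.94 in control pools, which overlap. The ratios were 0.05, -0.57, 0.79 and 0.10, of both signs, with an SD of 0.55 that equals that of MED1. They averaged -0.26 with the high NEFA pool in Cy3 and 0.44 with it in Cy5. The fitted ratio was 0.09 ± 0.16, with an interval of -0.27 to 0.45, or 0.831 to 1.37 times the control signal. It was -0.06 without replicate 1 and -0.08 without replicate 3, so that its sign rests on single arrays. The dim probe (EMPV1_08094) read 333, 269, 125 and 205 in high NEFA pools and 156, 116, 282 and 447 in control pools. It was above background in 0 of 4 high NEFA channels and in 1 of 4 control channels (replicate 4), and was not tested. No fold was read from it.

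PPARG likewise had 1 measured probe. EMPV1_23491 had intensities of 421, 341, 291 and 290 in the 4 high NEFA pools, against 284, 259, 481 and 405 in the control pools, all above background. Its log2 level spanned 7.92 to 8.35 in high NEFA pools and 8.10 to 8.44 in control pools, which overlap. The ratios were -0.16, -0.28, -0.09 and 0.10, and the fitted ratio was -0.10 ± 0.13, with an interval of -0.38 to 0.17 (0.766 to 1.13 times the control signal). This interval includes 0, and the SD over the 4 ratios was 0.16. The other probe, EMPV1_25300, was above background in 0 of 8 channels, at 118 to 288 in high NEFA pools and 90 to 312 in control pools, and no ratio was read from it. In the authors' deposited table, turned by dye, the ratios of the measured PPARG probe were -0.13, -0.26, -0.09 and 0.08.

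**Figure D2:**
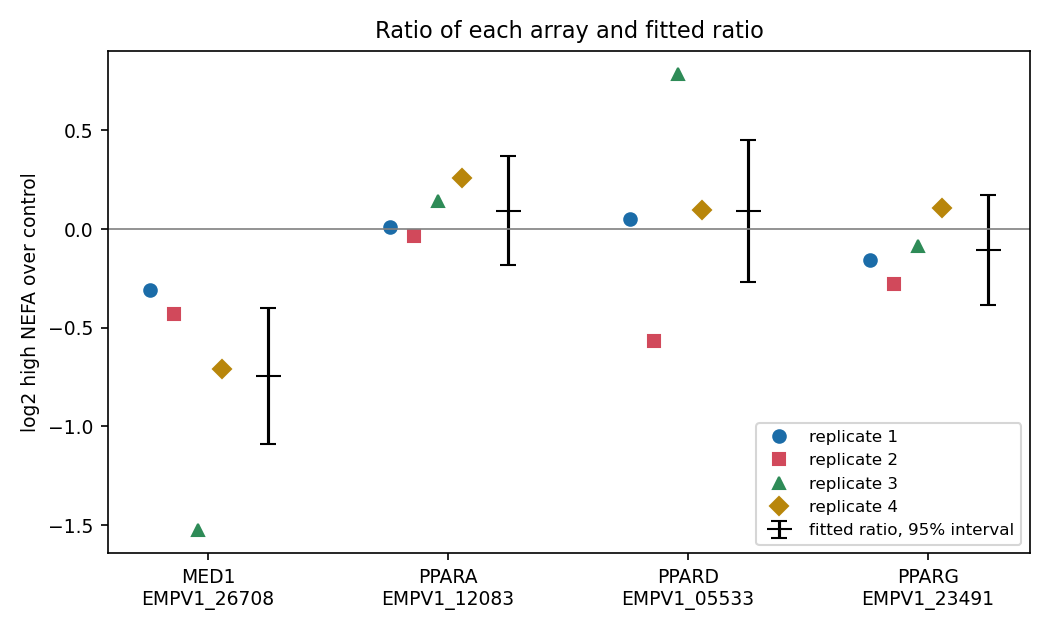
Log2 high NEFA over control (vertical axis) of the 4 tested probes on each of the 4 arrays (coloured markers), with the fitted ratio and its 95% interval in black. The MED1 ratios lie below 0 on all 4 arrays, and those of PPARA, PPARD and PPARG lie on both sides of 0.

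MED1 kept a negative fitted ratio under each of the 17 other ways of processing tried, between -0.79 and -0.43 with all 4 arrays and between -0.95 and -0.54 with 1 array left out. Not all of these could have changed its sign. Aquantile scaling, the probe filter, the dye intercept and the trend and robust prior leave its fitted ratio as it is. A fit with 1 array left out averages ratios that are all negative. The value nearest 0, -0.43 ± 0.14, came from the mean in place of the median pixel intensity of each spot. On that scale the MED1 spot read 831, 855, 448 and 569 in high NEFA pools and 703, 519, 1408 and 1098 in control pools, so that the excess of replicate 3's control pool was smaller than by the median. Without replicate 3 the fitted ratio was -0.54, and without replicate 4 it was -0.95. PPARA stayed between 0.05 and 0.12 and PPARG between -0.15 and -0.01 under the alternatives tried.

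**Figure D3:**
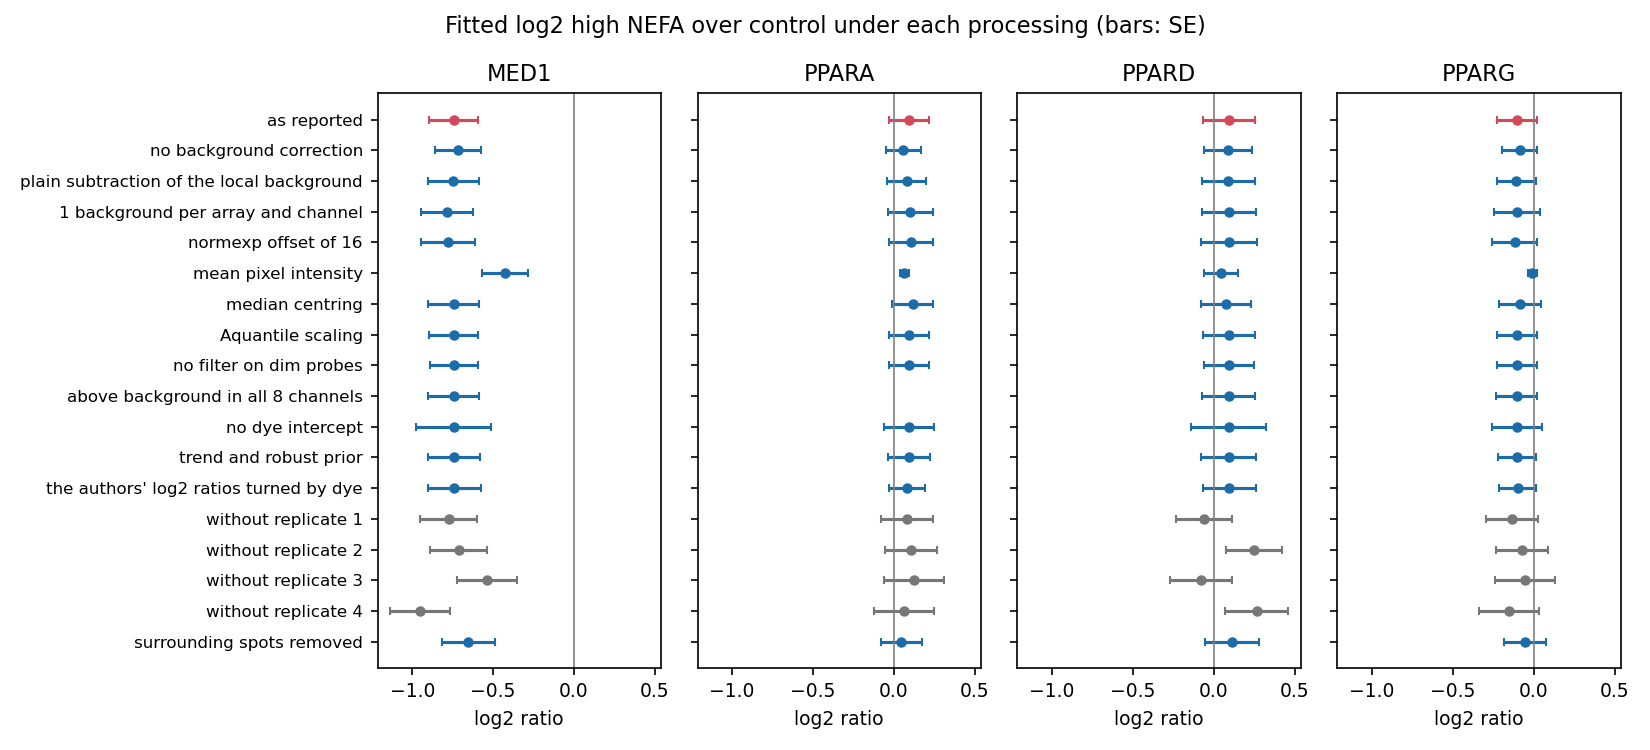
Fitted log2 high NEFA over control (horizontal axis, bars show the SE) of the 4 genes under the processing reported (top row) and each alternative below it. MED1 lies between -0.95 and -0.43 throughout, PPARA, PPARD and PPARG lie around 0, and PPARA has no value where a signal in all 8 channels was required.

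The MED1 spot lies in row 1 of the array, at its edge, in column 231, and its surroundings also differed between the dyes. Within 5 columns and 2 rows there were 31 probes, 16 of them tested. The median ratio of these 16 was 0.41 and 0.26 on replicates 1 and 2, and -0.46 and -0.57 on replicates 3 and 4, a dye pattern that averages to -0.09. MED1 differed from the local median by -0.72, -0.70, -1.07 and -0.13. On replicates 1 and 3, 0 of 16 neighbours had a lower ratio than MED1, on replicate 2 there was 1, and on replicate 4 there were 7. With the local median removed the fitted MED1 ratio was -0.65 ± 0.16. The mean ratios of all 31 neighbours ran from -0.52 to 0.11, so none reached that of MED1. Since MED1 was picked with its low ratio known, nothing is read from its place among these neighbours. On replicate 4 the low MED1 ratio was thus shared by nearby spots.

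**Figure D4:**
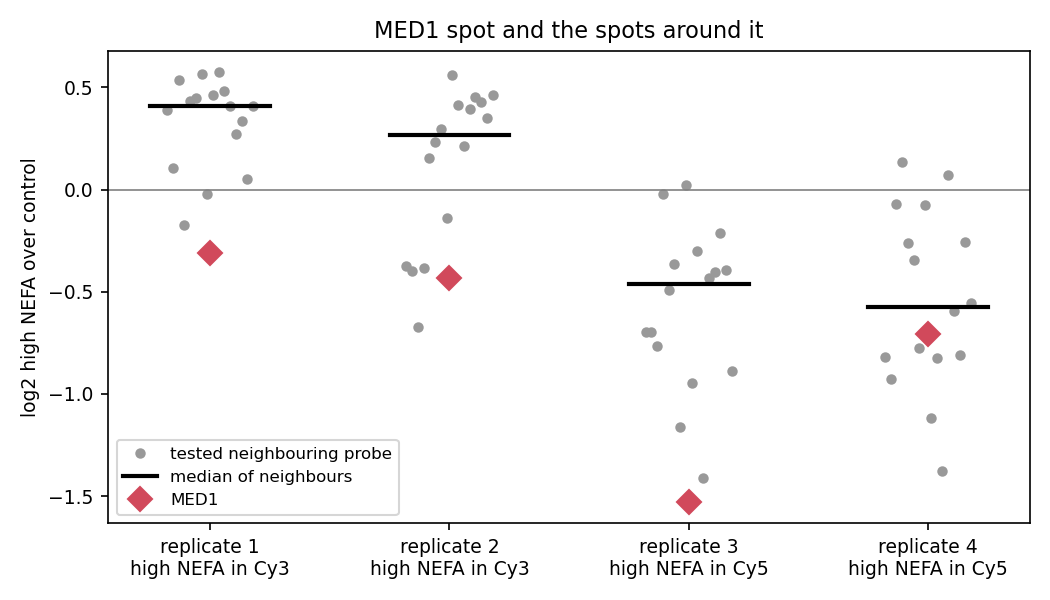
Log2 high NEFA over control (vertical axis) of the MED1 spot (diamond) and of the 16 tested probes within 5 columns and 2 rows of it (grey), by replicate, with the median of the neighbours as a bar. The median of the neighbours is above 0 on replicates 1 and 2 and below 0 on replicates 3 and 4, and MED1 lies below their median on each array. Its position is a description only, as MED1 was picked with its ratio known.

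Of the genes whose array ratios were most like those of MED1, by root mean square difference over the 4 arrays among 6212 genes, DNAJB4, a heat shock protein 40 family member, was nearest at 0.103, followed by ICAM1, a leukocyte adhesion molecule, at 0.132. The third, DDIT3, a stress-induced transcription factor, stood farther off at 0.336. The DNAJB4 likeness was not kept, with a difference of 1.07 when 1 background per array and channel was used and 0.865 with the mean pixel intensity, while ICAM1 stayed at 0.130 with the mean pixel intensity. For PPARA the nearest were BCL2, an inhibitor of cell death (0.0407), C2H11orf49 (0.0509) and HCLS1 (0.0559). For PPARD they were ACADVL, a mitochondrial enzyme of very-long-chain fatty acid oxidation (0.0910), EEF2K, a kinase of the translation factor EEF2 (0.0954), and PAX9, a developmental transcription factor (0.103). For PPARG they were ARHGEF5, a guanine nucleotide exchange factor (0.0305), GPR17, a G protein-coupled receptor (0.0409), and ADPRH, a hydrolase of ADP-ribose on arginine (0.0449). Small distances are easier to reach for genes with ratios near 0, such as PPARA and PPARG, and genes on the same 4 arrays share the dye orientation.

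The partners of the receptors showed no called difference. Of 69 genes tested in 7 lists of PPAR partners, cofactors and targets, 0 passed the adjusted threshold, as did 0 of all 6226 genes (0%). At an unadjusted p under 0.05 there were 5 of the 69, beside 6.42% of all genes. All 3 retinoid X receptors, the obligate partners of the PPARs, were on the array. RXRA had array ratios of -0.21, 0.06, -0.07 and -0.18, and -0.10 ± 0.13 when fitted. RXRG had -0.13 ± 0.13, of which -0.44 on replicate 4 is the outlying value, and RXRB was above background in 0 of 8 channels. With the mean pixel intensity RXRA had -0.02 and RXRG -0.05.

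Mediator subunits other than MED1 had fitted ratios on both sides of 0. Of 32 listed, 24 were on the array and 18 were tested, 16 of them above background in all 8 channels. They were positive for 9 and negative for 9, with a median of -0.00 beside -0.01 for all genes and a range of -0.28 to 0.28. Over all genes 52.8% were negative and 47.2% positive. The fitted ratio of MED1 lies outside this range, and its difference from the other subunits was not tested. Since MED1 was picked with its ratio known, nothing is read from that position. MED14, the backbone subunit of the complex, had -0.28 ± 0.13 (adjusted p = 0.764 in the limma fit), with array ratios of -0.68, -0.42, 0.18 and -0.20. MED19 had -0.28 ± 0.15 but ratios of 0.19, 0.79, -1.21 and -0.88, which follow the dye. MED23 had 0.28 ± 0.12 (adjusted p = 0.764 in the limma fit), with array ratios of 0.001, -0.09, 0.59 and 0.60. Its difference thus came from replicates 3 and 4, with the high NEFA pool in Cy5. The MED23 signal passed the background limit in 3 of the 4 high NEFA pools and 1 of the 4 control pools. With the mean pixel intensity these ratios were -0.02 for MED14, -0.10 for MED19 and 0.05 for MED23.

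Coactivators, which contact the ligand-bound receptors or modify chromatin for them, had a median of 0.07 over the 12 tested of 19 listed, with 9 positive and 3 negative. The histone acetyltransferase CREBBP had 0.26 ± 0.15, and its second probe 0.03 ± 0.12. The arginine methyltransferase CARM1 had 0.21 ± 0.13 on one probe and 0.21 ± 0.13 on the other, with ratios of 0.78, 0.38, -0.18 and -0.13 on the first. NCOA6, which binds several nuclear receptors, had -0.18 ± 0.14, from array ratios of 0.45, 0.15, -0.36 and -0.95 that change sign with the dye, and -0.031 without replicate 4. Only 3 of 10 corepressors were tested, and their median was -0.08. GPS2 had -0.15 ± 0.13, with 0.08 ± 0.13 on its second probe, and HDAC3, the deacetylase of the corepressor complex, had -0.08 ± 0.13. TBL1XR1 had 0.03 ± 0.13, from array ratios of 0.54, 0.68, -0.65 and -0.44 that change sign with the dye. Its signal passed the background limit in 2 of the 4 high NEFA pools and 3 of the 4 control pools. With the mean pixel intensity TBL1XR1 had -0.10, and CREBBP and CARM1 had 0.09 and 0.06.

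Other nuclear receptors had a median of -0.05, with 3 positive and 8 negative of the 11 tested. NR5A2, a receptor of early embryos and steroid-making cells, was below 0 on all 4 arrays (-0.30, -0.15, -0.34 and -0.07) and had a fitted ratio of -0.21 ± 0.13, although it was above background in only 2 of 4 channels of each kind of pool. The retinoic acid receptor RARB was above 0 on all 4 (0.05, 0.10, 0.29 and 0.53), with 0.24 ± 0.13. ESRRA, an oestrogen-related receptor of energy metabolism, had -0.19 ± 0.14, from array ratios of 0.43, 0.21, -0.94 and -0.47 that change sign with the dye. Like NR5A2, ESRRA was above background in only 2 of 4 channels of each kind of pool. With the mean pixel intensity ESRRA had 0.01, NR5A2 -0.03 and RARB 0.29. Of all genes with a value on every array, 4.04% were below 0 and 3.54% above 0 on all 4.

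PPAR target genes were split, with 10 positive and 12 negative of 22 tested and a median of -0.01. ACADL, a mitochondrial acyl-CoA dehydrogenase, had array ratios of -0.52, -0.14, 1.23 and 1.03, which change sign with the dye. Its fitted value was 0.40 ± 0.13. With the mean pixel intensity it was 0.85 ± 0.04, with an adjusted p of 0.511 in that limma fit. TXNIP, an inhibitor of thioredoxin, had -0.38, -0.77, 0.14 and -0.52, and -0.38 ± 0.15 when fitted, or -0.16 with the mean pixel intensity. Catalase (CAT), which breaks down hydrogen peroxide, was below 0 on all 4 arrays (-0.28, -0.34, -0.22 and -0.52) with -0.34 ± 0.13, but its second probe had 0.15 ± 0.12. UCP2, a mitochondrial carrier named after its values were seen, had 0.31 ± 0.13, from array ratios of -0.38, -0.18, 0.70 and 1.12 that also change sign with the dye. The adjusted p of these 4 genes was 0.764 in the limma fit of the median intensities. FABP5, which carries fatty acids to PPARD in mouse cells, was the only tested gene of the 5 fatty acid binding proteins on the array, with ratios of -0.46, 0.25, 0.48 and 0.91 and a fitted ratio of 0.30 ± 0.15, which was 0.12 without replicate 2 and 0.47 without replicate 1. Of the 68 list genes with 4 values, 27 (39.7%) changed sign with the dye, beside 41.5% of all genes. Such a gene had the same sign on both arrays of each dye orientation, and opposite signs between the 2 orientations.

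**Figure D5:**
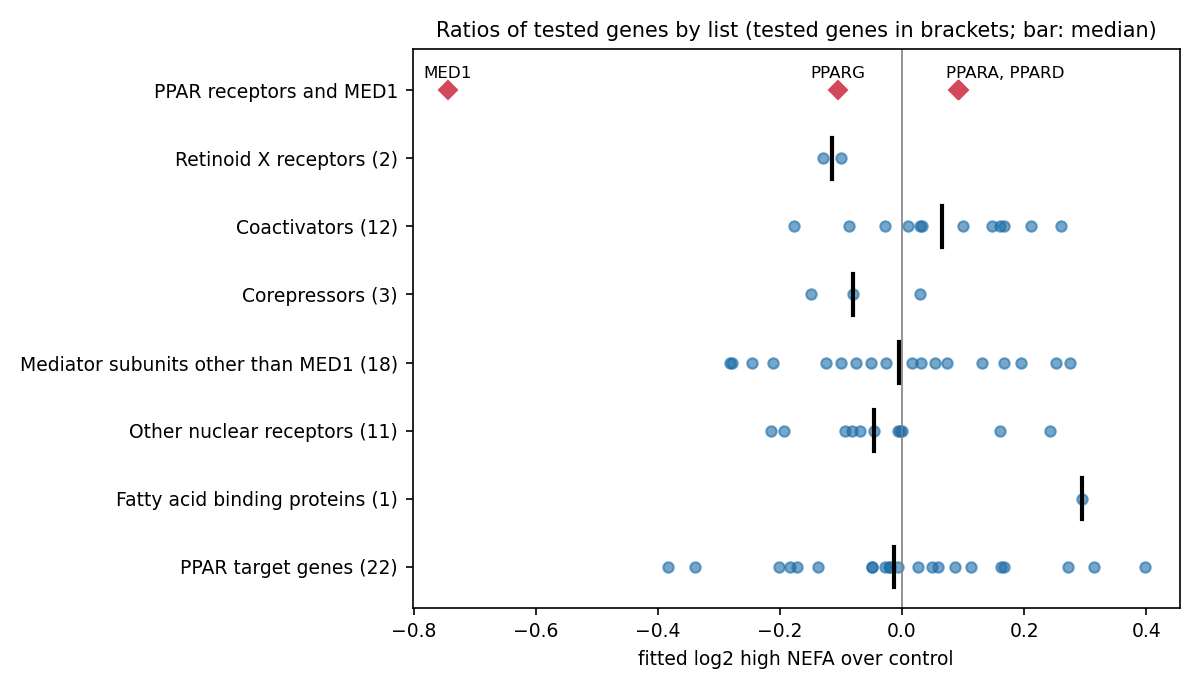
Fitted log2 high NEFA over control (horizontal axis) of each tested gene, by list, with the number of tested genes in brackets and the list median as a bar. MED1, at -0.74, lies to the left of every tested gene of the 7 lists, which run from -0.38 to 0.40, and PPARA, PPARD and PPARG lie near 0. MED1 was picked with its ratio known, so its position is a description only.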

How the data were processed

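The deposited scanner files of 4 two-colour arrays give each spot's pixel intensity, as median and as mean, in Cy3 (532 nm) and Cy5 (635 nm), with that of the local background, per the file headers. Nothing had been subtracted or normalized. Each array has 45220 spots, 43794 with EMPV1 probes and 153 negative controls. Spots marked to be ignored (60, 21, 17 and 17) were left out. The authors' deposited table gives log2 ratios whose scale and direction are not stated. Its columns correlated with log2 Cy5 over Cy3 from the scanner files at 0.994, 0.987, 0.982 and 0.975, had medians of 0.0022, 0.0083, 0.0088 and 0.016, and were used only as an alternative, turned by dye. Per the submitters' processing notes limma was used, in a version not given there.

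Median intensities were background-corrected with normexp (offset 50) and normalized by loess within each array, with control and marked spots at weight 0, in limma 3.58.1 (R 4.3.3, statmod 1.5.0). A probe was above background where its foreground was over the negative controls' mean plus 2 SD in that channel. Probes above background in at least 4 of 8 channels were tested with a coefficient for exposure, a dye intercept and empirical Bayes moderation (2 residual and 7.87 prior degrees of freedom). Calls required a Benjamini-Hochberg adjusted two-sided p under 0.05, and the looser nominal calls an unadjusted p under 0.05 and a 1.5-fold difference. The median SE was 0.13, and precision is limited by the number of arrays. The labels call the arrays biological replicates, but nothing says that the pools came from separate sows, so p-values speak only for these pools. The SE and p-values rest on the spread left after the dye intercept, moderated with that of all tested probes. Without the dye intercept the SE was 0.23 rather than 0.15 for MED1 and 0.23 rather than 0.16 for PPARD.

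Symbols came from the platform table (13146 probes, 218 updated through a RefSeq gene table). A gene was represented by its tested probe of highest mean intensity. No genome build is named, and no coordinates or sequences are given. The members and the gene lists were chosen with earlier results of these data known. Named are every probe of the 4 genes, the 3 genes of smallest p in each list, every retinoid X receptor, and the 3 genes nearest to each of the 4 by the root mean square difference of array ratios. Exceptions were named after their values were seen. Alternatives covered background correction, offset, pixel statistic, scaling, probe filter, dye intercept, the authors' ratios and each array left out.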

Additional observations from a re-analysis of the deposited data

Results flagged for a closer look

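Among 30 sets of 4 values examined (levels per kind of pool and ratios per gene), 2 held a value far from the other 3. Chance alone gives about 1 in 20, so this number is near that from chance. The PPARD probe EMPV1_05533 had a log2 level of 11.22 in the control pool of replicate 3, against 11.81 to 11.94 in the other control pools. The ratio of this probe on that array, 0.79, is the highest of its 4. The RXRG ratio was -0.44 on replicate 4, against -0.06 to 0.00 on the others.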

How the results depend on the processing

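The fitted ratio of MED1 stayed below 0 and that of PPARA above 0 in every alternative run, and PPARG stayed below 0. Aquantile scaling, the probe filter, the dye intercept and the trend and robust prior could not change these ratios. Leaving out an array could not turn MED1 either, since its 4 array ratios are all negative. With 1 array left out MED1 ranged from -0.95 (without replicate 4) to -0.54 (without replicate 3), and PPARG from -0.15 to -0.057. PPARD ranged from -0.080 to 0.26 with 1 array left out and was -0.06 without replicate 1. Each such fit leaves 1 array alone in its dye orientation, assumed to vary like the others. Probes past the adjusted threshold numbered 0 as reported, 6 with plain subtraction, 4 with an offset of 16, 5 with no filter, 3 with the authors' ratios, and 22 to 77 with 1 array left out (77, 70, 36 and 22 without replicates 1 to 4). Probes past the nominal threshold numbered 88 as reported, 28 with no background correction, 148 with plain subtraction, 207 with an offset of 16, 18 with the mean pixel intensity, 43 when all 8 channels had to be above background, 46 with no dye intercept, 105 with surrounding spots removed (an alternative chosen after seeing the data), and 229 to 266 with 1 array left out. The mean pixel intensity gave -0.10 for TBL1XR1, 0.013 for ESRRA and a coactivator median of 0.020. With 1 array left out TBL1XR1 ranged from -0.023 to 0.081, HDAC3 from -0.16 to 0.0039 and the coactivator median from 0.023 to 0.091. Of 18 list genes refitted this way, 13 moved by over 1.5 times or changed sign, among them NCOA6 (-0.32 to -0.031), FABP5 (0.12 to 0.47), TXNIP (-0.55 to -0.22), MED19 (-0.43 to -0.13), CREBBP (0.11 to 0.41) and RXRG (-0.23 to -0.028). The cause of these shifts was not tested. PPARA, dim on most arrays, had no value when all 8 channels were required. The arrays' replicate numbers pair the 2 pools of each array, and every ratio is taken within that pair, so the fit reported is itself the paired one.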
